A study of Mus musculus with 24 samples.

Results

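The acyl-CoA thioesterases Acot1, Acot2, Acot3, Acot4, Acot8, Acot12 and Acot13 were followed in isolated hepatocytes. They were chosen by gene symbol, as 7 of the 55421 genes in the count table, and all 7 had enough counts to be tested. Hepatocytes were prepared by 2-step liver perfusion from 24 male mice with no engineered allele named, and polyA RNA of each mouse was sequenced. Each group had 6 mice. Young mice (C57BL/6N, 6 months in the sample labels) were fed a Teklad normal diet (young ND) or a TestDiet high-fat diet (young HFD) for 9 weeks. Old mice (C57BL/6J, 24 months in the labels) were fed the same diets for as long (old ND, old HFD). The paper gives other ages and another normal diet and names no substrain, and since every old mouse has the other substrain, age and substrain cannot be told apart. The comparisons asked how the diet changed hepatocyte transcripts at each age, how old mice differed from young mice on each diet, and whether the diet response differed with age.

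Acyl-CoA thioesterases cut activated fatty acids (acyl-CoAs) into free fatty acid and coenzyme A, opposite to the acyl-CoA synthetases. They set the amounts of acyl-CoA, free fatty acid and free coenzyme A in each compartment of the cell. In mouse liver several of them are known targets of PPAR alpha, the nuclear receptor that switches on fatty acid oxidation in fasting and on fatty diets. Acot1 to Acot4 are closely related type I enzymes that lie side by side: Acot1 is cytosolic, Acot2 mitochondrial, and Acot3 and Acot4 peroxisomal, and Acot4 also cleaves succinyl-CoA. Acot8, Acot12 and Acot13 are hotdog-fold (type II) enzymes. Acot8 is peroxisomal, Acot12 is a cytosolic acetyl-CoA hydrolase of liver, and Acot13 (Them2) is associated with mitochondria.

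On GRCm38 the 4 type I members lie on the plus strand of chromosome 12. Acot2 (ENSMUSG00000021226) spans 83987861 to 83993873, Acot1 (ENSMUSG00000072949) 84009490 to 84018371, Acot4 (ENSMUSG00000052392) 84038379 to 84048601 and Acot3 (ENSMUSG00000021228) 84052144 to 84060402. With Acot5 and Acot6 they form a row of 6 genes over 123489 bases, and 3542 bases separate Acot4 from Acot3. Acot8 (ENSMUSG00000017307) lies on the minus strand of chromosome 2 from 164792765 to 164804882. Acot13 (ENSMUSG00000006717, minus strand, 24817948 to 24831540) and Acot12 (ENSMUSG00000021620, plus strand, 91741512 to 91786148) are both on chromosome 13. The coding sequences of Acot1 and Acot2 were 95.6% identical over 1236 aligned bases, those of Acot1 and Acot3 84.0% and those of Acot3 and Acot4 74.2%. Of the distinct 50-base windows in each gene's transcripts, 27.71% in Acot2, 19.17% in Acot1, 19.12% in Acot3 and 4.53% in Acot4 also occurred in other genes, and 0% in Acot8, Acot12 and Acot13. Acot1 and Acot2 were each other's main partner, so the division of reads between these near-identical genes is uncertain. Strand was not stated for the counting, and exons of Acot3 and Acot4 overlap the antisense gene 4732463B04Rik (1 to 99 counts per mouse), those of Acot8 overlap Snx21 (51 to 203 counts) and those of Acot12 overlap 4833422C13Rik (1 to 22 counts). Reads of these overlapping genes cannot be told apart from the members' own. On the same strand, Gm49366 shares 396 exonic bases with Acot3 and 33 with Acot4 and had 0 counts in every mouse.

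The 250 bases before the RefSeq start of the 4 neighbouring genes are shown because near-identical genes (Acot2 and Acot1) and genes whose transcripts moved together (Acot4 and Acot3) can then be compared letter by letter. They are RefSeq sequences of GRCm38.p6, plus strand, at chr12:83987611-83987860 (Acot2), chr12:84009252-84009501 (Acot1), chr12:84038129-84038378 (Acot4) and chr12:84051894-84052143 (Acot3). The RefSeq start of Acot1 lies inside the span given above, so the last 12 bases of its window are within the annotated gene. Capitals mark matches, on either strand, to CCAAT and to a repeat of GGNCA, any 1 base and AGGNCA, a loose form of the element that PPAR alpha binds with its partner RXR.
Acot2: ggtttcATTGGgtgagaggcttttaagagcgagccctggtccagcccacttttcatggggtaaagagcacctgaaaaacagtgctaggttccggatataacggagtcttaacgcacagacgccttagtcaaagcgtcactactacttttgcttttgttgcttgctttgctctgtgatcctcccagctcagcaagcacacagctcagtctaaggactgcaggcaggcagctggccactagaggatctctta
Acot1: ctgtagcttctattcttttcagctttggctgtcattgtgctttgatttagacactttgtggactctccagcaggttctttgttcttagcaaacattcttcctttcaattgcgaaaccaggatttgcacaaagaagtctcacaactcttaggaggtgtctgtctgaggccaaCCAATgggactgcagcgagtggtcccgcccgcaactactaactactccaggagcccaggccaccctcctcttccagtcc
Acot4: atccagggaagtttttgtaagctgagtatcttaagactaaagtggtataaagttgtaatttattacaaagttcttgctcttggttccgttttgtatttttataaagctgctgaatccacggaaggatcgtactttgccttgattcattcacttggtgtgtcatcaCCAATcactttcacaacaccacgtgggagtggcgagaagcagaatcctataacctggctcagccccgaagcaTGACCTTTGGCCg
Acot3: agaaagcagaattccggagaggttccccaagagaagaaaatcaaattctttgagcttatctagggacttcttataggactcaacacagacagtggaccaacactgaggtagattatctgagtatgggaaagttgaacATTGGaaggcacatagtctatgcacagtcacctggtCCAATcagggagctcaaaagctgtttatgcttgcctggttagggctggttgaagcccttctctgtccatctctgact
RefSeq promoters were matched for 6 of the 7 members, and Acot13 was not matched. The letters CCAAT (or ATTGG on the other strand) were found in Acot1, Acot2, Acot3, Acot4 and Acot8, and in 33.8% of 32851 promoters. The repeat was found in Acot4 alone of the 6, on the minus strand from 13 to 2 bases before the start, and in 0.694% of all promoters. AGGTCA was found in Acot4, inside that longer match, and in Acot12, and in 14% of promoters. The motifs were chosen after the sequences were seen, and a match is a description of letters, not of a bound site.

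Total counts per mouse ran from 9200332 to 22185069, and each old HFD mouse had fewer than any mouse of the other groups. Batches, as the sample titles name them, each held every group, with 3 mice per group except for old ND (2 in batch 1 and 4 in batch 2). Every pair of mice within a group differed by more than sampling noise. Hepatocyte markers such as Alb and Apoa1 were abundant in every mouse (46960 to 164600 CPM summed over 8 genes). All 8 Kupffer cell markers were also detected, summing to 1.48 to 65.6 CPM in young ND, 11.7 to 162.3 in young HFD, 37.99 to 1030 in old ND and 49.8 to 523 in old HFD. Old ND replicate 4 had the lowest hepatocyte sum and the highest Kupffer cell sum, and it was the lowest old ND mouse for 6 of the 7 members. In bulk samples, fewer cells of a type and less RNA per cell cannot be told apart.

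Acot13 and Acot12 had the highest mean level per exonic length in every group, and Acot2 had the lowest (CPM, counts scaled to library size by TMM, per kilobase of annotated exon). In young ND, Acot13 stood at 49.3 ± 4.15 CPM per kilobase (SD, n = 6), with mice from 42.4 to 53.6. Acot12 was next at 34.6 ± 2.22, from 30.5 to 37.2, and did not overlap Acot13. Acot1 (7.91 ± 2.53), Acot4 (7.76 ± 2.30) and Acot8 (6.30 ± 0.683) followed, and their ranges overlapped. Acot3 (2.61 ± 1.34) and Acot2 (1.88 ± 0.683) were lowest and overlapped each other but lay below every mouse's Acot8 level. Acot13 and Acot12 together held most of the summed level of the 7 members in young ND (44.7% and 31.3%). The order of the middle members moved with the group. In young HFD it was Acot4 (13.4 ± 4.60 CPM per kilobase), Acot3 (10.4 ± 7.75), Acot1 (9.97 ± 3.24) and Acot8 (6.77 ± 0.803), with overlapping neighbours. In old ND it was Acot4 (6.13 ± 2.60), Acot8 (4.94 ± 0.975), Acot1 (2.92 ± 1.66) and Acot3 (1.98 ± 1.77). In old HFD it was Acot4 (8.80 ± 4.14), Acot1 (5.79 ± 2.19), Acot8 (5.69 ± 1.56) and Acot3 (5.07 ± 5.32), and Acot13 and Acot12 overlapped there and in young HFD and old ND. The exonic length joins the exons of all annotated transcripts, so it understates genes whose longer annotated exons are little used. The share of Acot3 in the summed level of the members was 2.37% in young ND and 7.58% in young HFD.

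**Figure D1:**
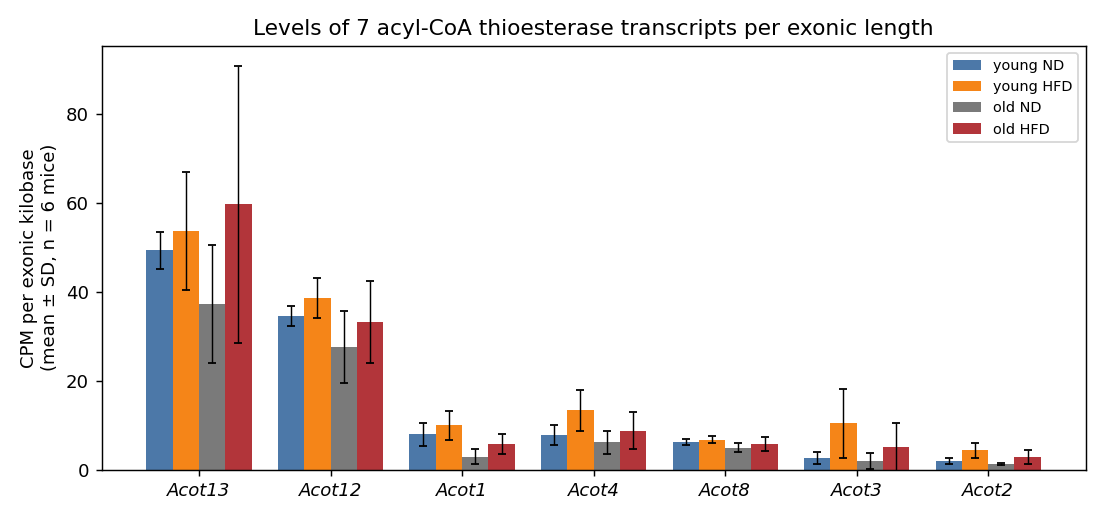
Mean level of each member in CPM per kilobase of exon (bars, from 0) with the SD over 6 mice (error bars) in the 4 groups. Acot13 and Acot12 are highest in every group, the other 5 members stay under 14 CPM per kilobase on average, and the SD of Acot13 is widest in old HFD (31.1).

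The mitochondrial enzyme Acot2 was the member that rose with HFD in young mice. It ran from 2.01 to 5.97 CPM in young ND (median 4.06) and from 6.09 to 14.8 in young HFD (median 7.97), so every young HFD mouse lay above every young ND mouse. The gap between the nearest mice was narrow, 5.97 against 6.09 CPM. On the log2 scale it rose by 1.17 (standard error 0.28, Benjamini-Hochberg adjusted p = 0.0221, edgeR quasi-likelihood F test), or 2.25-fold, with 1.41 in batch 1 and 0.98 in batch 2. Acot2 was thus 1 of 7 members called in this comparison, where 3.5% of all 13583 tested genes were called, and 1 of 7 whose groups did not overlap with HFD higher, against 1.77% of all genes. Kupffer cell markers were also higher in young HFD (8 of 8 with a positive fold change, 1 called). The part of these cells in the difference was not tested. The call was lost in 4 fits that left out 1 mouse each (young ND replicate 1, 2 or 4, or young HFD replicate 3), with an adjusted p of up to 0.0698, and in the fit without a batch term (adjusted p = 0.0594).

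The peroxisomal members Acot3 and Acot4 did not pass the test with HFD in young mice, although the difference of Acot3 was larger than that of Acot2. Acot3 ran from 3.02 to 13.5 CPM in young ND (median 10.4) and from 8.73 to 84.1 in young HFD (median 28.6). Its groups overlapped, and the log2 difference stood at 1.77 (standard error 0.67, adjusted p = 0.128, edgeR). Acot4 ran from 33.0 to 68.1 CPM in young ND (median 55.8) and from 52.1 to 138.5 in young HFD (median 86.5), a log2 difference of 0.75 (standard error 0.31, adjusted p = 0.157, edgeR). Both were higher in both batches (2.48 and 1.19 for Acot3, 1.10 and 0.46 for Acot4). In a fit of the young mice alone both passed, with adjusted p of 0.0122 and 0.0289 (edgeR). That fit called 2302 genes in all, against 475 in the model of all mice. Cytosolic Acot1 (median 29.5 CPM in young ND and 36.8 in young HFD) had a log2 difference of 0.36 (standard error 0.33), and Acot12, Acot8 and Acot13 had 0.15, 0.11 and 0.08. All 7 values were positive in the model of all mice, with a median of 0.36 against 0.01 over all tested genes.

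**Figure D2:**
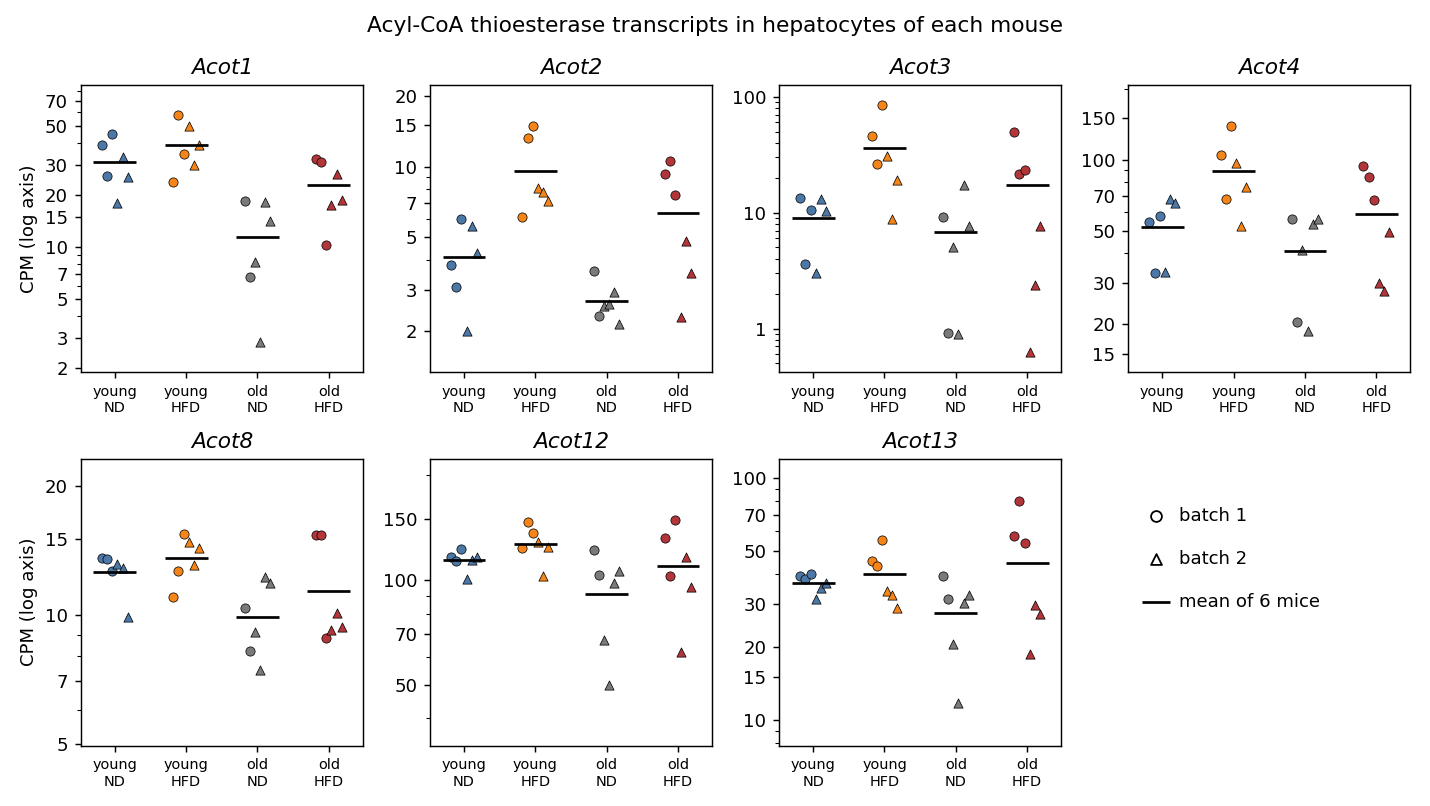
CPM of each member in every mouse on a log axis (circles, batch 1; triangles, batch 2; lines, mean of 6 mice) for the 4 groups. Acot2 of young HFD mice lies above that of all young ND mice, Acot1 is low in old ND, and the batch 1 mice of old HFD lie above its batch 2 mice for Acot2, Acot3, Acot4 and Acot13.

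In old mice, 0 of 7 members passed the test for HFD at an adjusted p under 0.05 in edgeR, where 3.01% of all genes did, 3 members had an unadjusted p under 0.05 (Acot1, Acot2 and Acot13, all higher) against 22% of all genes, and DESeq2 called 2 against 8.27% of all genes. Acot2 ran from 2.14 to 3.60 CPM in old ND (median 2.58) and from 2.29 to 10.5 in old HFD (median 6.199). The groups overlapped by 2 old HFD mice of batch 2, replicates 4 and 6 at 2.29 and 3.53 CPM, that lay within the old ND range. The log2 difference was 1.04 (standard error 0.29, adjusted p = 0.0515 in edgeR and 0.0109 in DESeq2), 1.57 in batch 1 and 0.48 in batch 2. Acot1 ran from 2.86 to 18.6 CPM in old ND (median 11.2) and from 10.3 to 32.4 in old HFD (median 22.6). Its log2 difference was 0.94 (standard error 0.34, adjusted p = 0.113, edgeR), 0.91 in batch 1 and 0.95 in batch 2, and DESeq2 gave an adjusted p of 0.0465. In a fit of the old mice alone neither passed, with adjusted p of 0.298 for Acot2 and 0.375 for Acot1 (edgeR). That fit called only 15 genes in all, against 409 in the model of all mice. Without old HFD replicate 3, edgeR called both. The 4 mice with the most Kupffer cell marker counts were old ND replicates 3 and 4 and old HFD replicates 4 and 6, the last 2 being the mice that overlapped old ND for Acot2. Without these 4, Acot2 was called (log2 fold change 1.41, adjusted p = 0.0251, edgeR) and Acot1 was at 0.75 (adjusted p = 0.224, edgeR), where 401 genes were called in all, against 409 in the model of all mice.

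In old HFD, Acot2, Acot3, Acot4 and Acot13 differed between the batches with no overlap, and Acot1, Acot8 and Acot12 overlapped. The share of all genes that separate between these batches was not counted, so this split is not shown to be particular to the members. Acot3 ran from 21.5 to 49.4 CPM in the 3 batch 1 mice of old HFD and from 0.632 to 7.70 in the 3 batch 2 mice, with no overlap. Its log2 fold change over old ND was 2.60 in batch 1 and -1.08 in batch 2 (0.71 with both, standard error 0.74, adjusted p = 0.616, edgeR), so no single direction held. Kupffer cell markers summed to 49.8 to 108.9 CPM in the batch 1 mice of old HFD and to 71.7 to 523 in its batch 2 mice. Endothelial markers (21.7 to 55.8 against 105.3 to 448.1 CPM) and stellate cell markers (23.97 to 63.5 against 65.5 to 299.9 CPM) were higher in batch 2 with no overlap. The sum of the hepatocyte markers was lower in batch 2 with no overlap (88380 to 131700 against 80130 to 87160 CPM). Most of that sum was Alb (mean 68110 CPM in old HFD), and the genes of the list did not all go this way. Alb was highest in replicate 3 of batch 1 and lowest in replicate 4 of batch 2. Apoa1 was the reverse, lowest in replicate 3 (6889 CPM) and highest in replicate 4 (18510 CPM). The part of these cells in the batch difference of the members was not tested. Acot4 had 1.06 in batch 1 and -0.23 in batch 2. Acot13 ran from 53.8 to 80.0 CPM in batch 1 of old HFD and from 18.7 to 29.7 in batch 2, with log2 fold changes over old ND of 0.80 and 0.09 (0.49 with both, standard error 0.21, adjusted p = 0.180, edgeR). Acot12 and Acot8 had 0.22 and 0.18. The median of the 7 members was 0.49, against -0.01 over all tested genes.

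**Figure D3:**
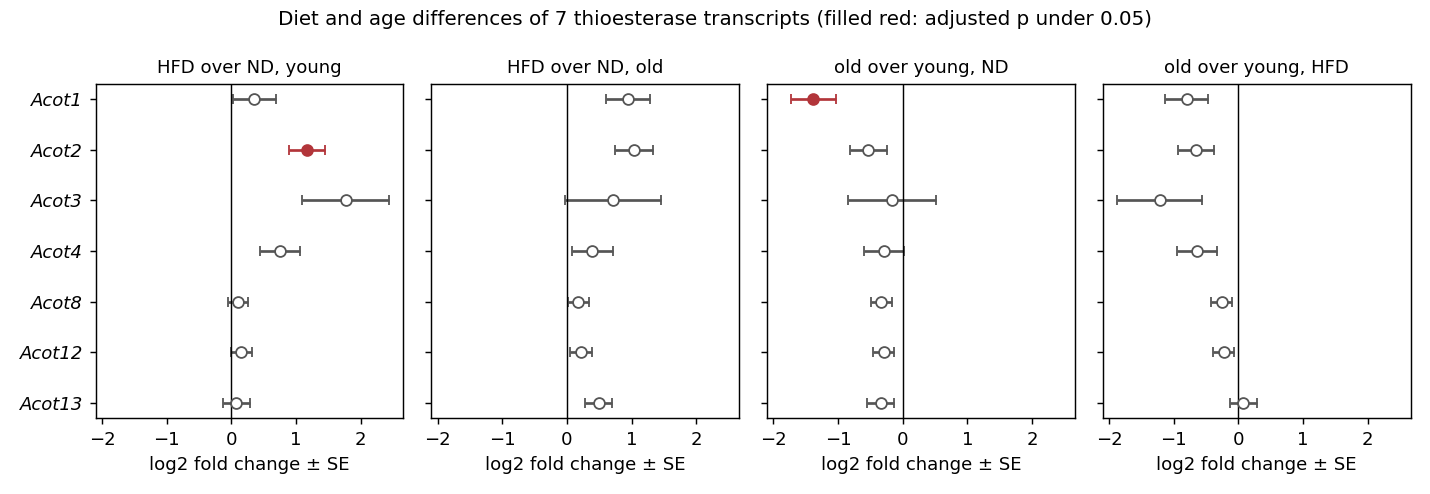
Log2 fold change of each member with its standard error from edgeR (horizontal axis) in 4 comparisons, with adjusted p under 0.05 in filled red. Acot2 with HFD in young mice (1.17) and Acot1 with age on ND (-1.38) are the filled points.

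Cytosolic Acot1 was lower in old than in young mice on ND. It ran from 17.9 to 45.0 CPM in young ND (median 29.5) and from 2.86 to 18.6 in old ND (median 11.2). The groups overlapped by 2 old ND mice (replicates 1 and 5, at 18.6 and 18.2 CPM) that lay just above the lowest young ND mouse. On the log2 scale it fell by 1.38 (standard error 0.34, Benjamini-Hochberg adjusted p = 0.0140, edgeR quasi-likelihood F test), or 0.384-fold, with -1.52 in batch 1 and -1.23 in batch 2. It was the 1 member of 7 called in this comparison, where 8.5% of all genes were called (1.24% lower). Kupffer cell markers were called higher in old ND for 8 of 8 genes, and old ND replicates 3 and 4, with Kupffer cell marker sums of 721.4 and 1030 CPM, had Acot1 at 8.25 and 2.86 CPM. The other 4 old ND mice (replicates 1, 2, 5 and 6) had Kupffer cell sums of 37.99, 73.3, 84.9 and 48.5 CPM and Acot1 at 18.6, 6.69, 18.2 and 14.2 CPM. Without the 4 mice with the most Kupffer cell marker counts the log2 fold change was -1.08 and the adjusted p 0.131 (edgeR), so the call was lost, and the part of other cells in it was not tested. Calls were lost widely in that fit of fewer mice, with 94 genes called in this comparison against 1155 in the model of all mice. The call was kept in each of the 24 fits that left out 1 mouse.

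The other 6 members were also lower on average in old ND than in young ND, and 0 of them passed the test in edgeR or DESeq2, with Acot8 at an unadjusted p of 0.0498, where 12.3% of all genes passed in DESeq2 and 22.2% had an unadjusted p under 0.05. Acot2 had a log2 difference of -0.53 (standard error 0.29, adjusted p = 0.286, edgeR), and Acot13, Acot8, Acot12, Acot4 and Acot3 had -0.34, -0.33, -0.29, -0.29 and -0.16. The median over the 7 members was -0.33 against 0.01 over all genes. Without the 4 mice with the most Kupffer cell marker counts, Acot13 was at -0.12, Acot12 at -0.07, Acot4 at -0.14, Acot3 at 0.08, Acot8 at -0.22 and Acot2 at -0.58. All but Acot2 lay nearer to 0 there, with Acot3 on the other side of it, and the part of other cells was not tested. Acot12 ran from 100.5 to 122.6 CPM in young ND (median 115.2) and from 50 to 121.7 in old ND (median 100.4), and Acot8 from 9.90 to 13.5 (median 12.98) and from 7.44 to 12.2 (median 9.75). The lower ends of both genes in old ND belonged to replicate 4.

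On HFD, 0 of 7 members passed the test between old and young mice in edgeR and 0 in DESeq2, where 2.24% of all genes passed in edgeR and 6.32% in DESeq2. At an unadjusted p under 0.05 there were 3 members, Acot1, Acot2 and Acot4, all lower in old HFD, against 21% of all genes. Acot1 had a log2 difference of -0.79 (standard error 0.33, adjusted p = 0.178, edgeR), with medians of 36.8 CPM in young HFD and 22.6 in old HFD. Acot2 had -0.66 (standard error 0.27, adjusted p = 0.178, edgeR) and Acot4 -0.64 (standard error 0.31, adjusted p = 0.234, edgeR). Acot3 had -1.22 with a standard error of 0.66, Acot8 -0.26, Acot12 -0.23 and Acot13 0.08. All 8 Kupffer cell markers had a positive fold change in this comparison and 0 were called by edgeR, and their part in these values was not tested. Without the 4 mice with the most Kupffer cell marker counts, Acot1 was at -0.68, Acot2 at -0.36, Acot3 at -0.74, Acot4 at -0.46, Acot8 at -0.14, Acot12 at -0.08 and Acot13 at 0.33, so all but Acot13 lay nearer to 0. The first 6 of these were lower in old HFD in both batches and further from 0 in batch 2 (Acot2 -0.35 and -1.14, Acot3 -0.74 and -2.46, Acot4 -0.36 and -1.09 in batches 1 and 2), and Acot13 had 0.38 and -0.36. The 2 comparisons of age share no mice with each other, but each shares its young or old mice with a comparison of diet.

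Old HFD and young ND mice, which differ in both age and diet, did not differ past the test in any of the 7 members in edgeR (0 of 7) or DESeq2 (0 of 7), and 0 members had an unadjusted p under 0.05, where the shares of all genes were 30.2%, 34.4% and 42.3%. Acot1 stood at -0.44 (standard error 0.33) and Acot2 at 0.51 (standard error 0.28) on the log2 scale, and the largest value was 0.55 for Acot3 (standard error 0.70). Without the 4 mice with the most Kupffer cell marker counts, Acot2 (0.83, adjusted p = 0.0439, edgeR) and Acot13 (0.43, adjusted p = 0.0474, edgeR) passed. The difference between the diet response of old and young mice (the age by diet interaction) was called for 0 of 7 members and for 0% of all genes in edgeR. At an unadjusted p under 0.05 it held for 0 members and 1247 of 13583 genes, and DESeq2 called 0 members and 4 genes. For Acot1 the interaction was 0.59 (standard error 0.48), for Acot2 -0.13 (standard error 0.40) and for Acot3 -1.06 (standard error 0.96).

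Acot3 and Acot4, neighbours on chromosome 12, varied together from mouse to mouse. With group and batch means of log2 CPM removed, their Pearson r over 24 mice was 0.94 and Spearman's rho 0.96. Each p was 1e-05 by permutation within batches with 100000 resamples, the smallest these can give (adjusted p 0.000105 and 7e-05 over the 21 pairs of members). Without the 2 mice farthest from the median of Acot3, r was 0.95. It was 0.96 in batch 1 and 0.926 in batch 2, and within groups it ran from 0.91 in old HFD to 0.987 in young HFD. The lowest old ND mouse had 0.899 CPM of Acot3 and 18.8 of Acot4, and the highest young HFD mouse 84.1 and 138.5. The lowest Acot3 of all mice, 0.632 CPM, was in old HFD replicate 4, with 29.9 of Acot4. Acot3 thus spread over a wider range than Acot4. At 100 bases, 0.32% of the windows of Acot4 occurred in Acot3. Both genes also overlap the antisense gene 4732463B04Rik (312 exonic bases of Acot3 and 615 of Acot4), and the part of shared reads in this r was not tested. All 21 pairs of members had a positive r, and both genes of a pair come from the same library and preparation. The next highest were Acot4 with Acot13 (0.729) and Acot3 with Acot13 (0.723). Acot1 and Acot2, the most alike in sequence, had an r of 0.363 (permutation test, p = 0.0888, adjusted p = 0.0981) and a rho of 0.347 (permutation test, p = 0.107, adjusted p = 0.125), and without 2 mice r was 0.60.

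**Figure D4:**
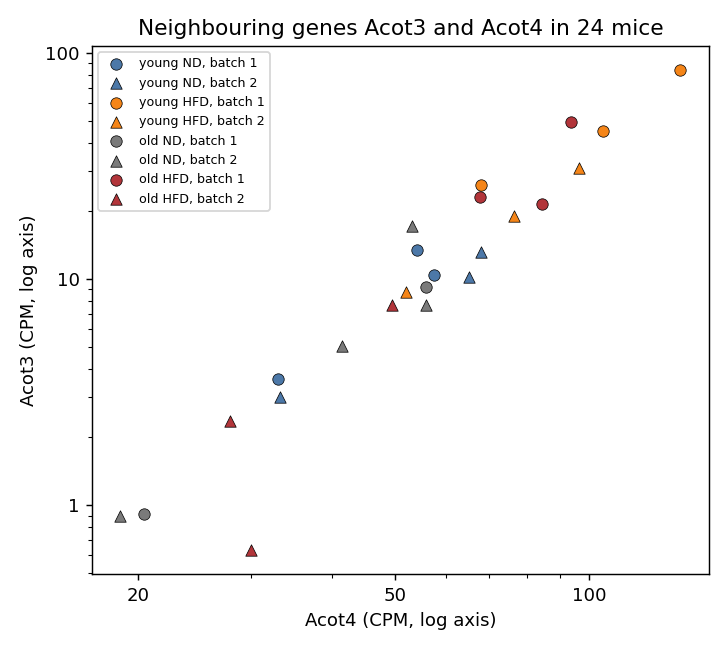
CPM of Acot3 against CPM of Acot4 in 24 mice, both on log axes, with colours for groups and circles and triangles for batches 1 and 2. The points rise together from an old ND mouse with the lowest Acot4 (18.8 CPM, with 0.899 of Acot3) to a young HFD mouse at 138.5 and 84.1. The lowest Acot3 (0.632 CPM, with 29.9 of Acot4) is an old HFD mouse.

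Among all tested genes, those whose log2 CPM followed a member most closely over the 24 mice (batch means removed, group differences kept) were as follows, given as Pearson r and as a description. Acot1 was closest to Slc25a20, the carnitine-acylcarnitine carrier of mitochondria (0.925), Acsl1, a long-chain acyl-CoA synthetase (0.916), and Acaa1b, a peroxisomal thiolase (0.899). Acot2 was closest to Lamb3 (0.944), Hpgd, which breaks down prostaglandins (0.895), and Rab30 (0.893). Acot3 and Acot4 were each other's nearest (0.958), followed by Acadl, a mitochondrial acyl-CoA dehydrogenase (0.826), and Lipg, endothelial lipase (0.817), for Acot3, and by Lipg (0.819) and Nr1i3, the nuclear receptor CAR (0.819), for Acot4. Acot8 was closest to Ndufa10, a subunit of respiratory complex I (0.880), Wdr18 (0.870) and Ddt (0.840). Acot12 was closest to Bbox1, the last enzyme of carnitine synthesis (0.940), Dpys, of pyrimidine breakdown (0.929), and Pbld1 (0.927). Acot13 was closest to Uqcrfs1, the Rieske protein of complex III (0.942), Prdx6, a peroxiredoxin (0.934), and Tmem126a (0.930). No gene other than Acot3 and Acot4 among these is a member. The mice share libraries and preparation, and r over them holds group differences too.

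The other thioesterases and related acyltransferases were counted in the same model. Of 13 such genes 10 could be tested, and Acot5, Acot10 and Them5 had too few counts. With HFD in young mice 0 of 10 were called, where 3.5% of all genes were (median log2 fold change 0.51, 8 of 10 positive). Acot6, the remaining tested type I gene of the chromosome 12 row, had 1.57 (standard error 0.48, adjusted p = 0.0685, edgeR), and Acot9, a mitochondrial thioesterase, had 0.94 with all young HFD mice above all young ND mice (standard error 0.30, adjusted p = 0.0781, edgeR). Acot6 was barely detected, with 1 to 19 counts per mouse in young ND and 17 to 46 in young HFD. Them7, of the hotdog-fold family, separated in the same way as Acot9 in young mice, with at most 19.2 CPM in young ND and at least 20.05 in young HFD. Groups without overlap and HFD higher made up 1.77% of all genes. With HFD in old mice 1 of 10 was called against 3.01% of all genes, Them7, at 0.73 (standard error 0.20, adjusted p = 0.0444, edgeR). Between old and young mice on ND, Acot9 was called higher at 0.98 (standard error 0.31, adjusted p = 0.0474, edgeR) and Acnat1, which joins fatty acids to amino acids, was called lower at -0.78 (standard error 0.21, adjusted p = 0.0223, edgeR), and 8 of 10 were not called, where 8.5% of all genes were called. Acot9 was highest in old ND replicate 4 (6.21 CPM against a group median of 2.497), the mouse with the highest Kupffer cell sum. Without the 4 mice with the most Kupffer cell marker counts neither was called (0.49 and -0.70, adjusted p = 0.427 and 0.187, edgeR), where 94 genes were called in all, against 1155 in the model of all mice. On HFD, 0 of 10 were called between old and young mice, against 2.24% of all genes (median -0.13, 2 of 10 positive).

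Some known PPAR alpha targets outside the members rose with HFD at both ages. In young mice 3 of 15 tested targets were called higher and 0 lower, where 3.5% of all genes were called in either direction, with a median log2 fold change of 0.45 and 14 of 15 positive. They were Vnn1, a pantetheinase of coenzyme A breakdown (1.497, standard error 0.21), and the fatty acid omega-hydroxylases Cyp4a10 (1.82, standard error 0.43) and Cyp4a14 (2.16, standard error 0.55). In old mice 4 of 15 were called higher and 0 lower (median 0.51), where 3.01% of all genes were called. They were Vnn1 (1.33), Cyp4a10 (1.92), Cyp4a14 (2.25) and Creb3l3 (0.50), a transcription factor that acts with PPAR alpha. Without the 4 mice with the most Kupffer cell marker counts the calls of Cyp4a14 and Creb3l3 in old mice were lost, with log2 differences of 2.34 and 0.37 in fewer mice (adjusted p = 0.0533 and 0.101, edgeR). The receptors and coactivators, Ppara among them, had 0 of 7 called in either diet comparison. Ppara itself had 0.25 (standard error 0.17) in young and -0.05 (standard error 0.17) in old mice, so at the transcript level its own diet difference was not detectable.

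Genes of the neighbouring steps were called with diet in 0 to 2 cases per list, where 3.5% of all genes were called in young and 3.01% in old mice. Of 16 tested acyl-CoA synthetases, which make the substrates of the thioesterases, 1 was called with HFD in young mice, Acsm2, lower at -2.48 (standard error 0.65), and 2 in old mice, the fatty acid transporters Slc27a1 (1.35, standard error 0.32) and Slc27a2 (0.77, standard error 0.15). Acsm2 was barely detected, with 12 to 42 counts per mouse in young ND and 2 to 9 in young HFD. Slc27a1 had 1.195 without the 4 mice with the most Kupffer cell marker counts, close to its value in all mice, and was not called (adjusted p = 0.0638, edgeR). Of 12 genes of coenzyme A synthesis and hydrolysis, Vnn1, counted in this list too, was the one called in each diet comparison. Of 6 tested genes of the carnitine shuttle, Cpt1a, which brings acyl groups into mitochondria, was called in young mice (0.79, standard error 0.18) and 0 in old mice, where Cpt1a had 0.58 (standard error 0.18, adjusted p = 0.0752, edgeR). Of 17 genes of peroxisomal beta-oxidation, Hacl1, of alpha-oxidation, was called lower in young mice (-0.78, standard error 0.18) and 0 were called in old mice. In the last 2 lists, 3 each were called lower between old and young mice on ND, where 1.24% of all genes were called lower. These were Cpt2 (-0.60), Crat (-0.69) and Slc25a20 (-0.51) of the carnitine shuttle, and Abcd3 (-0.61), Hacl1 (-0.60) and Scp2 (-0.54) of the peroxisome, named after their values were seen. The acyl-CoA synthetases Acsl1 (-0.77) and Acsm3 (-0.87) were called lower in the same comparison, and Crat (-0.77) was called lower between old and young mice on HFD. None of these calls of Cpt2, Crat, Slc25a20, Abcd3, Hacl1, Scp2, Acsl1 and Acsm3 with age was kept without the 4 mice with the most Kupffer cell marker counts (log2 -0.65 to -0.34, adjusted p 0.0677 to 0.258 in edgeR), and the part of other cells was not tested. The fit without these mice called 94 genes with age on ND, against 1155 in the model of all mice, and 94 with age on HFD, against 304.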

How the data were processed

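RNA-seq counts of isolated hepatocytes were analysed for 24 mice. Group, replicate number and batch came from the sample titles, and the mice are separate animals. The count table that the authors deposited held whole numbers per gene, which their notes tie to STAR 2.7.3a and HTSeq 0.11.2 on mm10, after FastQC 0.11.8, and the treatment of reads that match several genes is not given in the sources used here. The authors also deposited FPKM values adjusted between batches. Against CPM per kilobase, the FPKM values followed division by the span from gene start to end (over 11804 genes, median ratio 1.036, Pearson r 0.998 across genes) more closely than by exonic length (median ratio 0.199, r 0.865), so levels between genes, planned as FPKM, were compared as CPM per exonic kilobase, from the GRCm38 GENCODE annotation. 0 columns lacked a sample.

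Counts were tested in edgeR 4.0.16 (R 4.3.3): TMM scaling, filterByExpr (minimum count 10, minimum total 15), a single model of the 24 mice with terms for group and batch, quasi-likelihood F tests, and Benjamini-Hochberg adjustment over 13583 genes in each of 6 comparisons, called at an adjusted p under 0.05. Log2 CPM used a prior count of 2. Total counts of 9200332 to 22185069 set the precision, and PCR reads without molecular identifiers mean that counting error is a lower limit. The alternatives were RLE scaling, DESeq2 1.42.0, no count filter, no batch term, the replicate number as a block, only the mice compared, limma 3.58.1 on log2(FPKM + 1) or log2(FPKM + 0.1), each batch alone, leaving out each mouse, and, chosen after seeing the data, leaving out the 4 mice with the highest summed Kupffer cell markers.

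The members, the gene lists and the motifs were chosen with earlier results of these data known. The text names every member, any related thioesterase, up to 3 called genes per list with the smallest adjusted p in each diet comparison (Creb3l3, which tied for the third place, and the genes called with age were added after their values were seen), and for each member the 3 genes with the highest Pearson r. A result for 1 listed gene is not reported here. Marker lists for Kupffer cells, lymphocytes, endothelial, stellate and cholangiocyte cells were counted with the same model. Lymphocyte markers summed to 0.189 to 3.23 CPM in young ND and 3.24 to 34.8 in old ND, endothelial to 10.1 to 106.1 and 29.4 to 572.6, stellate to 5.25 to 63.6 and 72.9 to 380.7, and cholangiocyte to 6.26 to 15.3 and 8.72 to 54.6. Coding sequences were aligned with biopython 1.88, figures were drawn with matplotlib 3.10.9, and permutations ran in numpy 2.4.6 under Python 3.11.15.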

Additional observations from a re-analysis of the deposited data

Results flagged for a closer look

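Of 28 sets of 6 mice (7 members in 4 groups), 1 held a mouse far from the others. Acot8 in young ND replicate 6 stood at 3.33 log2 CPM, below the nearest mouse at 3.68, a gap of 0.788 of the range of that group. Chance alone marks about 1 in 20 such sets. Without any one mouse, this one included, the log2 fold change of Acot8 with HFD in young mice stayed between 0.06 and 0.21.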

How the results depend on the processing

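Across 11 alternatives Acot2 kept a higher level with HFD in young mice (log2 0.63 to 1.41, adjusted p 0.000193 to 0.567, edgeR, DESeq2 or limma) and was called in 8, and Acot1 kept a lower level in old ND (-1.52 to -1.002, adjusted p 9.78e-15 to 0.325) and was called in 8. The smallest adjusted p of each came from the fit without the count filter. The number of members called with HFD in young mice was 1, and became 3 without the count filter and in the young mice alone, and 0 without the batch term and in each batch alone, where fewer mice were fitted. All genes called in these fits were 1473, 2302, 174, 130 and 9 in that order, against 475. The calls of Acot3 and Acot4 without the filter had standard errors of 0.178 and 0.154, against 0.67 and 0.31 with it. With HFD in old mice the number of members called was 0, and became 1 with RLE scaling, without the batch term and without the 4 mice with the most Kupffer cell markers, 2 with DESeq2 and 3 without the count filter. All genes called in these fits were 478, 266, 401, 1123 and 1108 in that order, against 409. With age on ND the number of members was 1, and became 0 in each batch and without those 4 mice, where 93, 2 and 94 genes were called, against 1155. With age on HFD it was 0 members, and 3 without the filter, where 1235 genes were called, against 304. For old HFD against young ND it was 0 members, and 2 without the filter, 1 in batch 1 (Acot13) and 2 without the 4 mice, and for the interaction 0, and 1 without the filter. Without the filter 4623 genes were called for old HFD against young ND, against 4100 with it. Leaving out 1 mouse at a time gave 0 to 1 members called with HFD in young mice, 0 to 2 in old mice (1 without young ND 4, young HFD 1, or old HFD 4, 5 or 6, and 2 without old HFD 3), 1 to 1 for age on ND and 0 to 0 for the other comparisons. The cause of these changes was not tested.

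Groups share replicate numbers, which belong to different mice. When that number replaced the batch as a replicate block, Acot2 with HFD in old mice passed (log2 1.12, adjusted p = 0.0425, edgeR), so 1 member was called in place of 0, and no other call changed among the members. Residuals of mice that share a number correlated on average at -0.023 to 0.377, and at -0.0875 to 0.0101 with batch removed as well. Removing group and batch means from so few mice itself draws such values toward or below 0. They cannot show whether mice of the same number share anything besides it. Replicate 4 was lowest for 6 of 7 members in old ND, 5 in young ND and 4 in old HFD. In young HFD the lowest mice were replicates 1, 5 or 6.

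The sign turned only for values that had not passed the test. In batch 1 alone these were Acot8 with HFD in young mice (-0.026), Acot12 in old HFD against young ND (0.095) and the interactions of Acot2 (0.17), Acot3 (0.11) and Acot12 (-0.064). In batch 2 alone they were Acot13 with HFD in young mice (-0.080), Acot3, Acot4 and Acot8 with HFD in old mice (-1.08, -0.23 and -0.074), Acot13 with age on HFD (-0.36), Acot2, Acot3, Acot4 and Acot13 in old HFD against young ND (-0.16, -1.28, -0.63 and -0.44) and the interaction of Acot8 (-0.33). With limma on log2(FPKM + 1) they were Acot12 in old HFD against young ND (0.015) and the interactions of Acot8 (-0.013) and Acot12 (-0.0084), and with a pseudocount of 0.1 the same 3 (0.012, -0.0083 and -0.00066). Without the batch term it was the interaction of Acot2 (0.026), and without the 4 mice Acot3 with age on ND (0.076), Acot12 in old HFD against young ND (0.095) and the interactions of Acot2 (0.21) and Acot12 (-0.0019). Leaving out 1 mouse gave ranges across 0 for Acot3 with age on ND (-0.82 to 0.20), Acot13 with age on HFD (-0.091 to 0.20), Acot4, Acot12 and Acot13 in old HFD against young ND (-0.046 to 0.28, -0.12 to 0.060 and -0.011 to 0.32) and the interactions of Acot2, Acot8 and Acot12 (-0.39 to 0.034, -0.017 to 0.14 and -0.054 to 0.16).

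The number of all genes called with HFD in young mice was 475 in the model of all mice and 9 to 2302 under the alternatives, in old mice 409 and 15 to 1123, with age on ND 1155 and 2 to 2053, with age on HFD 304 and 0 to 1235, for old HFD against young ND 4100 and 617 to 4675, and for the interaction 0 and 0 to 587. Counts per mouse fell as low as 8 for Acot3 and 29 for Acot2, so counting error weighs on these low values.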
